A study of Mus musculus with 24 samples.

Results

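Mammospheres carrying Myc-ER were compared by the cells they were grown from: PKHneg_LMycER, grown from sorted PKH-negative cells, and WT_LMycER, grown from cells that had not been sorted. Both came from normal mammary glands of wild-type FVB/Hsd mice aged 7 weeks, both were infected with the lentiviral vector L-pWPI-MycER, and both were harvested at passage 3, 72 h after plating. They make up 6 of the 24 samples of the series (3 of each, 2 of its 8 groups). The set was chosen by these labels and not by any measured value. All libraries of an origin belong to the same group. Origin therefore cannot be told apart from sorting or from any difference in how the groups were prepared. Further groups show each origin without Myc-ER. PKHneg (3 samples) is the sorted, uninfected PKH-negative population at passage 1, PKHhigh (2 samples) is the dye-retaining population of the same passage, and WT_Lctrl (3 samples) is unsorted cells with the empty vector L-pWPI at passage 3. All of them come from wild-type mice of the same age and strain, and the labels do not mention a ligand being added.

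Mammospheres are floating spheres that mammary cells form when they cannot attach. PKH is a membrane dye that is shared out at each division, so PKH-negative cells are those that have divided many times and PKH-high cells those that have divided little. In Myc-ER the transcription factor Myc is joined to the part of the oestrogen receptor that binds hormone. Myc drives genes for ribosome building, nucleotide synthesis and cell division, and its fusion form is held inactive in the cytoplasm until it binds ligand.

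Every level below is a mean over the libraries of a group of the read counts that the authors normalised with DESeq2. Levels per library were not analysed here, so no test was possible between PKHneg_LMycER and WT_LMycER and differences are described by their size. The difference of a gene is the log2 of (PKHneg_LMycER mean + 1) over (WT_LMycER mean + 1). The groups come from tables normalised separately, and PKHneg_LMycER was divided by 1.05, the median ratio over the 13431 genes listed in both tables, which sets the median difference to 0. The ± after a difference is a combined implied standard error, which is the authors' fold change set against the authors' p-value. It was taken from the authors' own contrasts of PKHneg_LMycER with PKHneg and of WT_LMycER with WT_Lctrl. It holds the spread of 2 more groups than the difference itself and served as a yardstick, not as a test.

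The labelled tissue was first set against its markers, per kilobase of the longest annotated transcript so that genes can be compared. The median of all genes was 316 normalised counts per kb in PKHneg_LMycER and 314 in WT_LMycER. Luminal markers had medians of 30.2 in PKHneg_LMycER and 60.8 in WT_LMycER over 22 genes, leaving out Esr1, which the vector carries. Basal and myoepithelial markers had medians of 30.3 normalised counts per kb in PKHneg_LMycER and 61.5 in WT_LMycER. Fibroblast markers had medians of 1755 in PKHneg_LMycER and 2198 in WT_LMycER over 25 genes. The proteoglycan gene Dcn stood at 18294 normalised counts per kb in PKHneg_LMycER and 12803 in WT_LMycER, whereas the luminal keratin gene Krt8 stood at 74.8 in PKHneg_LMycER and 324 in WT_LMycER. The cultures are mammary by label, and in both Myc-ER groups the medians of the epithelial marker lists lay below, and that of the fibroblast list above, the median of all genes.

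Reads of the Myc-ER transcript can be counted under Esr1 and Myc, the genes whose parts it joins. Myc was also read in the groups without Myc-ER, where PKHneg was higher than WT_Lctrl by 0.94. Its level is therefore not that of the vector alone. Esr1 averaged 243786 normalised counts in PKHneg_LMycER and 152198 in WT_LMycER, against 76.2 in PKHneg and 129 in WT_Lctrl. Myc averaged 27148 in PKHneg_LMycER and 16782 in WT_LMycER, against 5708 in PKHneg and 2975 in WT_Lctrl. The difference was 0.68 ± 0.77 for Esr1 and 0.69 ± 0.44 for Myc, in each case 1.6-fold higher in PKHneg_LMycER and within 2 implied standard errors. Both Myc-ER groups lay above both groups without it for either gene.

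The gene expression of the Myc-ER groups was close for most genes. Of 13431 genes, 11520 (85.8%) differed by less than 1.5-fold. PKHneg_LMycER was 2-fold or more higher than WT_LMycER for 343 genes (2.55%) and 2-fold or more lower for 347 (2.58%), 690 in all (5.14%). Of these, 213 higher (1.59%) and 209 lower genes (1.56%) were also past 2 combined implied standard errors. With the groups scaled by 24 reference genes instead, 269 genes were higher and 427 lower, and scaled by ribosomal protein genes 149 were higher and 790 lower. These scalings moved the median of all genes by -0.11 and -0.37. Many interferon-response genes were among the higher ones, and markers of endothelium, epithelium and smooth muscle among the lower.

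**Figure D1:**
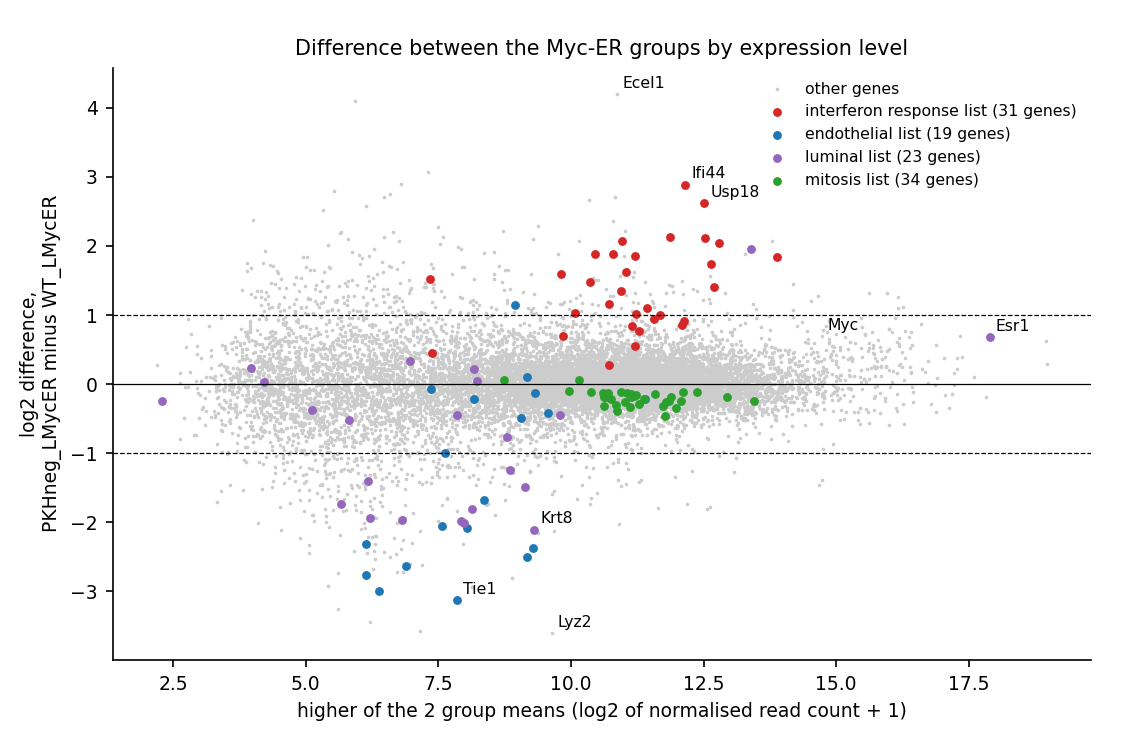
Each point is a gene, with the higher of its PKHneg_LMycER and WT_LMycER means on a log2 axis and the log2 difference on the vertical axis; the dashed lines mark 2-fold. The 31 interferon-response genes lie above 0 and the 34 mitosis genes gather near 0. Endothelial and luminal markers reach differences of about -2 to -3, at levels below the median of all genes (1091 normalised counts in WT_LMycER).

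Interferon-response genes were higher in PKHneg_LMycER. Interferons bind cell surface receptors whose signal switches on antiviral genes. Of the 32 genes in the list, 31 were in both tables; 22 were 2-fold or more higher, all 22 past 2 implied standard errors, none was 2-fold lower and all 31 lay above 0. The list median was 1.41 beside 0 for all genes. Summed over the list, the levels were 102209 normalised counts in PKHneg_LMycER and 36509 in WT_LMycER.

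Ifi44, an interferon-induced gene on chromosome 3 (GRCm38, chr3:151730922-151749960), averaged 4570 normalised counts in PKHneg_LMycER and 617 in WT_LMycER, a difference of 2.89 ± 0.62 (7.41-fold). Usp18, which removes the ubiquitin-like protein Isg15 and dampens interferon signalling, averaged 5855 in PKHneg_LMycER and 950 in WT_LMycER (2.62 ± 0.63). Irf7, a transcription factor that amplifies interferon production, averaged 5939 in PKHneg_LMycER and 1368 in WT_LMycER (2.12 ± 0.53). Each of these was more than 4-fold higher in PKHneg_LMycER. Isg15 itself, the ubiquitin-like modifier, averaged 7103 in PKHneg_LMycER and 1721 in WT_LMycER. Rtp4, a receptor-transporting protein induced by interferon, averaged 3752 in PKHneg_LMycER and 857 in WT_LMycER (2.13 ± 0.47). The RNA sensors Ddx58 and Ifih1 differed less, by 0.92 and 1.02. The signalling factors Stat2 and Irf9 differed by 1.0 and 1.1. The smallest difference in the list was that of Ifit2, an antiviral RNA-binding protein, at 1673 normalised counts in PKHneg_LMycER and 1381 in WT_LMycER (0.28).

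Gene families that interferon can induce were grouped after their values were seen, and most but not all followed the same direction. All 9 immunity-related GTPases, which attack the vacuoles of intracellular parasites, were 2-fold or more higher, with differences between 1.3 and 1.74. Of 10 guanylate-binding proteins, 7 were 2-fold or more higher, with Gbp3 at 1981 normalised counts in PKHneg_LMycER and 468 in WT_LMycER. Of 8 Oas genes, whose products make a second messenger for RNA decay, 6 were 2-fold or more higher. Of 8 genes of the Ifi200 cluster, which includes DNA sensors, 5 were 2-fold or more higher, and Ifi202b averaged 14253 in PKHneg_LMycER and 3398 in WT_LMycER. The pair Apol9a and Apol9b differed by 2.71 and 2.67. The Slfn family did not follow: of 7 genes 2 were 2-fold or more higher (1 past 2 implied standard errors) and 2 lay below 0, with a median of 0.10. Within it Slfn2 differed by 1.32 and Slfn3 by -0.58. Reads of near-identical copies within these families, such as Apol9a and Apol9b or the Oas1 genes, may not be told apart.

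Antigen presentation genes differed in the same direction by less. Of 20 listed, 16 were measured in both tables, of which 3 were 2-fold or more higher, none was 2-fold lower, and the median was 0.47. B2m, the invariant chain of class I molecules, averaged 63416 normalised counts in PKHneg_LMycER and 25450 in WT_LMycER (1.32 ± 0.52). The class I heavy chain gene H2-K1 averaged 18766 in PKHneg_LMycER and 8930 in WT_LMycER (1.07 ± 0.48). The class II genes H2-Ab1 and H2-Eb1, expressed by professional antigen-presenting cells, were low in both groups and differed by -0.29 and -0.21. The peptide transporters Tap1 and Tap2 differed by 0.08 and 0.07. Scaled by ribosomal protein genes, the list median was 0.10.

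Promoters of these genes were read because interferon signalling acts through a repeated GAAA motif, the interferon-stimulated response element. A motif of 10 bases, GAAANNGAAA, or TTTCNNTTTC on the other strand, was searched in the 250 bases before each gene's start in RefSeq's promoter table (GRCm38.p6), counting overlapping matches. It was found in 319 of 10021 genes in both tables that had a promoter there (3.18%), and in 36 of 245 genes that were 2-fold or more higher in PKHneg_LMycER (14.7%). Among genes 2-fold or more lower it was found in 6 of 233 (2.58%). Of the higher genes outside the interferon list, 27 of 230 held it (11.7%), and of those in the list 9 of 15 (60.0%). Over the whole interferon list, whatever the difference, 11 of 21 held it (52.4%). The higher genes outside the list still include genes that interferon can induce, such as Apol9a and Apol9b. The windows below show the match in capitals for 4 genes, 5′ to 3′ on the strand of the gene, at chr4:156200866-156200905 (-), chr3:142559987-142560026 (+), chr5:120907526-120907565 (-) and chr19:34640780-34640819 (+). A match describes letters, not binding.
Isg15: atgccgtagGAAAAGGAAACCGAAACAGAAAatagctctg
Gbp3: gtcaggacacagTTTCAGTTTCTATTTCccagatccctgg
Oas1a: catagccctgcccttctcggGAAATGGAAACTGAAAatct
Ifit1: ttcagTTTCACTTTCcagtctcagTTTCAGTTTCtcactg

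Isg15 held 3 overlapping matches and the other 3 genes 2 each, and their differences were 2.04 for Isg15, 2.08 for Gbp3, 1.88 for Oas1a and 1.41 for Ifit1. The promoters of Apol9a and Apol9b carried one and the same window, shown once.
Apol9a and Apol9b: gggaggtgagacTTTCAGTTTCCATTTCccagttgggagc

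Part of the interferon list also differed between the groups without Myc-ER. The list median was 0.84 in PKHneg against WT_Lctrl, with 11 of the 31 genes 2-fold or more higher, 2 lower, and summed levels of 108687 normalised counts in PKHneg and 58754 in WT_Lctrl. Ifi44 averaged 4144 in PKHneg and 1338 in WT_Lctrl, and Usp18 averaged 3988 in PKHneg and 1916 in WT_Lctrl. The 2 lower genes had the largest differences of the list: the antiviral GTPase Mx1 averaged 14.9 in PKHneg and 265 in WT_Lctrl (-4.06), and the chemokine Cxcl10 averaged 27.4 in PKHneg and 413 in WT_Lctrl (-3.87). Both were higher in PKHneg_LMycER than in WT_LMycER, by 0.45 and 0.70. PKHneg and WT_Lctrl also differ in sorting, vector and passage, and these cannot be told apart. By the authors' deposited table, 16 of the 31 genes fell and none rose in WT_LMycER against WT_Lctrl, whereas in PKHneg_LMycER against PKHneg 7 fell and 4 rose. Over all genes, those tables called 27.5% higher and 23.9% lower for WT_LMycER, and 19% higher and 18.9% lower for PKHneg_LMycER, at an adjusted p below 0.05. Summed over the list, PKHneg_LMycER stood at 102209 normalised counts against 108687 in PKHneg, and WT_LMycER at 36509 against 58754 in WT_Lctrl. In PKHhigh against PKHneg, the authors' deposited table called 24 of the 31 genes lower and none higher; over all genes it called 15.7% lower and 13.3% higher.

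**Figure D2:**
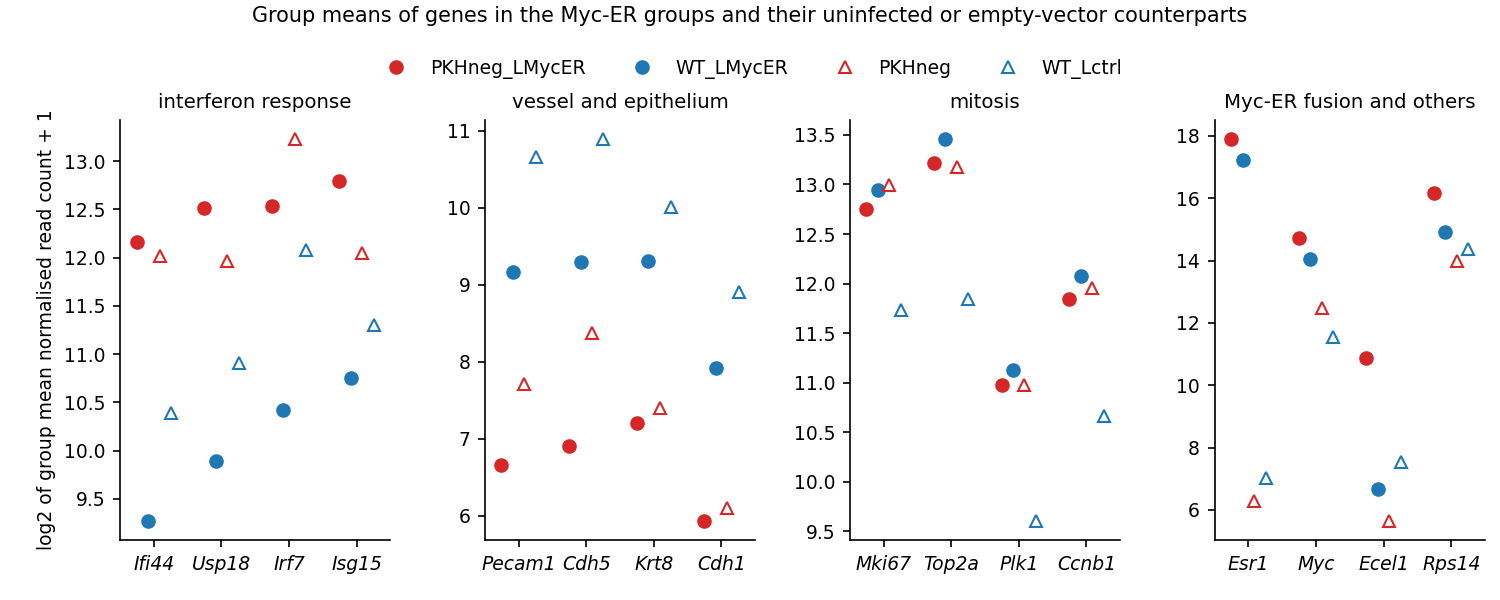
Group means on a log2 scale for 16 genes in PKHneg_LMycER, WT_LMycER, PKHneg and WT_Lctrl; filled circles are Myc-ER groups, open triangles the groups without it, red is PKH-negative origin and blue unsorted origin. The 4 interferon genes shown are higher and the 4 vessel and epithelial genes lower in each red group than in its blue counterpart, and the mitosis genes of PKHneg_LMycER, WT_LMycER and PKHneg lie together above WT_Lctrl.

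Endothelial markers were lower in PKHneg_LMycER. Of 20 listed, 19 were measured in both tables, of which 10 were 2-fold or more lower, all 10 past 2 implied standard errors, and 1 was 2-fold higher; the median was -1.68. Pecam1, an adhesion molecule of endothelial junctions, averaged 100 normalised counts in PKHneg_LMycER and 572 in WT_LMycER (-2.50 ± 0.63). Cdh5, the endothelial cadherin, averaged 120 in PKHneg_LMycER and 626 in WT_LMycER (-2.38 ± 0.82). Tie1, an endothelial receptor tyrosine kinase, averaged 25.4 in PKHneg_LMycER and 230 in WT_LMycER (-3.13 ± 0.65). The transcription factors Sox18 and Erg and the tight-junction protein Cldn5 differed by -3.0, -2.77 and -2.63. Not every marker was lower. Eng, Flt1, Kdr and Ramp2 differed by between -0.22 and 0.11. Plvap stood at 124 normalised counts per kb in PKHneg_LMycER and 144 in WT_LMycER. Egfl7 stood at 304 in PKHneg_LMycER and 406 in WT_LMycER, and Sele at 130 and 183. Vwf, a clotting factor carrier, averaged 489 normalised counts in PKHneg_LMycER and 220 in WT_LMycER (1.15). Summed over the list, the levels were 5901 normalised counts in PKHneg_LMycER and 8552 in WT_LMycER. Among members whose higher mean was at least 200, the list median was -0.46, and 5 of the 10 lower members had both means under 200. In bulk RNA, fewer cells of a type and less RNA per cell cannot be told apart.

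Pericyte and smooth muscle markers showed the same. Of 12 listed, 11 were measured, of which 7 were 2-fold or more lower and none higher, with a median of -1.66. Mcam, a pericyte and endothelial adhesion molecule, averaged 66.7 normalised counts in PKHneg_LMycER and 473 in WT_LMycER (-2.81 ± 0.74). Rgs5, a pericyte regulator of G-protein signalling, and Abcc9, a potassium channel subunit, differed by -2.45 and -1.77. Smooth muscle myosin Myh11 averaged 48.9 in PKHneg_LMycER and 247 in WT_LMycER. Pdgfrb, which fibroblasts share, stood at 9613 in PKHneg_LMycER and 11921 in WT_LMycER (-0.31).

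Many, but not all, epithelial genes were lower too. Of 29 luminal genes, 23 were measured, Esr1 among them, and the median was -0.51. Of these, 10 were 2-fold or more lower (5 of them past 2 implied standard errors) and 1 was higher. In all, 16 lay below 0 and 7 above 0, the latter including Esr1, Gata3 and Prom1. Krt8, a keratin of simple epithelium at chr15:101996698-102004482, averaged 147 normalised counts in PKHneg_LMycER and 635 in WT_LMycER (-2.11 ± 0.88). Cdh1, epithelial cadherin, averaged 60.2 in PKHneg_LMycER and 242 in WT_LMycER (-1.99 ± 0.97), and Epcam, an epithelial adhesion molecule, averaged 79.1 in PKHneg_LMycER and 281 in WT_LMycER. The 1 higher gene was Ly6a (Sca-1), at 10756 in PKHneg_LMycER and 2769 in WT_LMycER (1.96), a surface protein that stromal cells also carry. Of 15 genes of epithelial keratins, junctions and proteases, grouped after their values were seen and mostly repeating the luminal list, 14 were 2-fold or more lower (6 past 2 implied standard errors), with summed levels of 1469 normalised counts in PKHneg_LMycER and 3895 in WT_LMycER. Of 22 basal genes, 15 were measured. Of these, 8 were 2-fold or more lower (6 past 2 implied standard errors) and 1 was higher. The higher one was Trp63, a basal transcription factor with 16.7 normalised counts in PKHneg_LMycER and 7.02 in WT_LMycER. The lower ones include Acta2 and Myh11, which are also in the pericyte and smooth muscle list, so these lists are not separate. Krt14, a basal keratin, averaged 15.0 in PKHneg_LMycER and 104 in WT_LMycER (-2.72 ± 0.89). In WT_LMycER against WT_Lctrl, luminal and basal genes had median implied standard errors of 0.67 and 0.53, beside 0.17 for all genes. The authors' fold changes are shrunken, so these standard errors may understate the spread, and counts past 2 of them may be too high. Of 17 milk and secretory genes 6 were measured; 2 were 2-fold or more lower, neither past 2 implied standard errors, and none was higher, with a median of -0.38. The lower ones were Ltf (-1.75) and Wfdc18 (-1.48), whereas Xdh and Mfge8, of the milk fat globule, differed by -0.05 and -0.16 and Spp1, a secreted phosphoprotein, by 0.62.

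Notch genes, basement membrane genes and Schwann cell genes contained further lower members. Of all genes, 2.58% were 2-fold or more lower. Of 15 Notch pathway genes, 14 were measured, of which 6 were 2-fold or more lower and none higher: the ligands Dll4 and Jag2, the receptor Notch3 and the target transcription factors Heyl, Hey1 and Hey2. Notch3 averaged 775 normalised counts in PKHneg_LMycER and 2107 in WT_LMycER (-1.44 ± 0.57), whereas Notch1 and Notch2 differed by -0.29 and -0.42. Lama5, a laminin chain of basement membranes, averaged 186 in PKHneg_LMycER and 815 in WT_LMycER (-2.13 ± 0.82). Of 21 basement membrane genes 3 were 2-fold or more lower and none higher, with a median of -0.38. Of 9 neural and Schwann cell genes measured, 3 were 2-fold or more lower, none was higher and 4 lay above 0, with a median of -0.49. The Schwann cell factor Sox10 and the neuregulin receptor Erbb3 differed by -2.31 and -2.09, and the neuronal tubulin gene Tubb3 by 0.83. Dll4, Heyl and Notch3 are also vascular genes, so these lists are not separate from the endothelial and pericyte ones; Notch3, for example, is in both the Notch and pericyte lists.

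Immune cell markers were mixed, and many were not in both tables: 13 of 23 macrophage genes and 4 of 19 lymphocyte genes were measured. Lyz2, the macrophage lysozyme, averaged 64.2 normalised counts in PKHneg_LMycER and 793 in WT_LMycER (-3.61 ± 0.61), and Ctss, a lysosomal protease of myeloid cells, averaged 20.0 in PKHneg_LMycER and 109 in WT_LMycER. Ptprc, the leukocyte common antigen, averaged 94.4 in PKHneg_LMycER and 28.1 in WT_LMycER (1.71 ± 0.73). Aif1 and Coro1a, a macrophage and a leukocyte actin-binding protein, were 1.41 and 1.37 higher, and the macrophage receptor Csf1r stood at 52.5 in PKHneg_LMycER and 69.2 in WT_LMycER. The T cell kinase Lck averaged 167 in PKHneg_LMycER and 62.9 in WT_LMycER. Summed over 13 macrophage genes, the levels were 1617 in PKHneg_LMycER and 2314 in WT_LMycER. Over 4 lymphocyte genes they were 314 in PKHneg_LMycER and 112 in WT_LMycER. Of the 13 macrophage genes, 9 lay below 0, with a median of -0.52, whereas all 4 lymphocyte genes lay above 0. Ptprc is in both lists. The part of immune cells in the interferon difference was not tested.

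Fibroblast genes, which had the high levels per length, were a little lower as a group. Of 26 listed, 25 were measured, of which 19 lay below 0, with a median of -0.31. By 2-fold or more, 3 were lower and 1 higher, beside 2.58% and 2.55% of all genes. Postn, a matrix protein, averaged 1391 normalised counts in PKHneg_LMycER and 4642 in WT_LMycER (-1.74 ± 0.45), and the collagen chain gene Col1a1 averaged 10406 in PKHneg_LMycER and 27213 in WT_LMycER. Pdgfra, a receptor for platelet-derived growth factor that marks fibroblasts, stood at 31796 in PKHneg_LMycER and 21986 in WT_LMycER (0.53). The matrix enzyme gene Mmp10 averaged 148 in PKHneg_LMycER and 662 in WT_LMycER (-2.16 ± 0.36), and the aggrecan-degrading Adamts5 averaged 1006 in PKHneg_LMycER and 438 in WT_LMycER (1.20 ± 0.44).

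**Figure D3:**
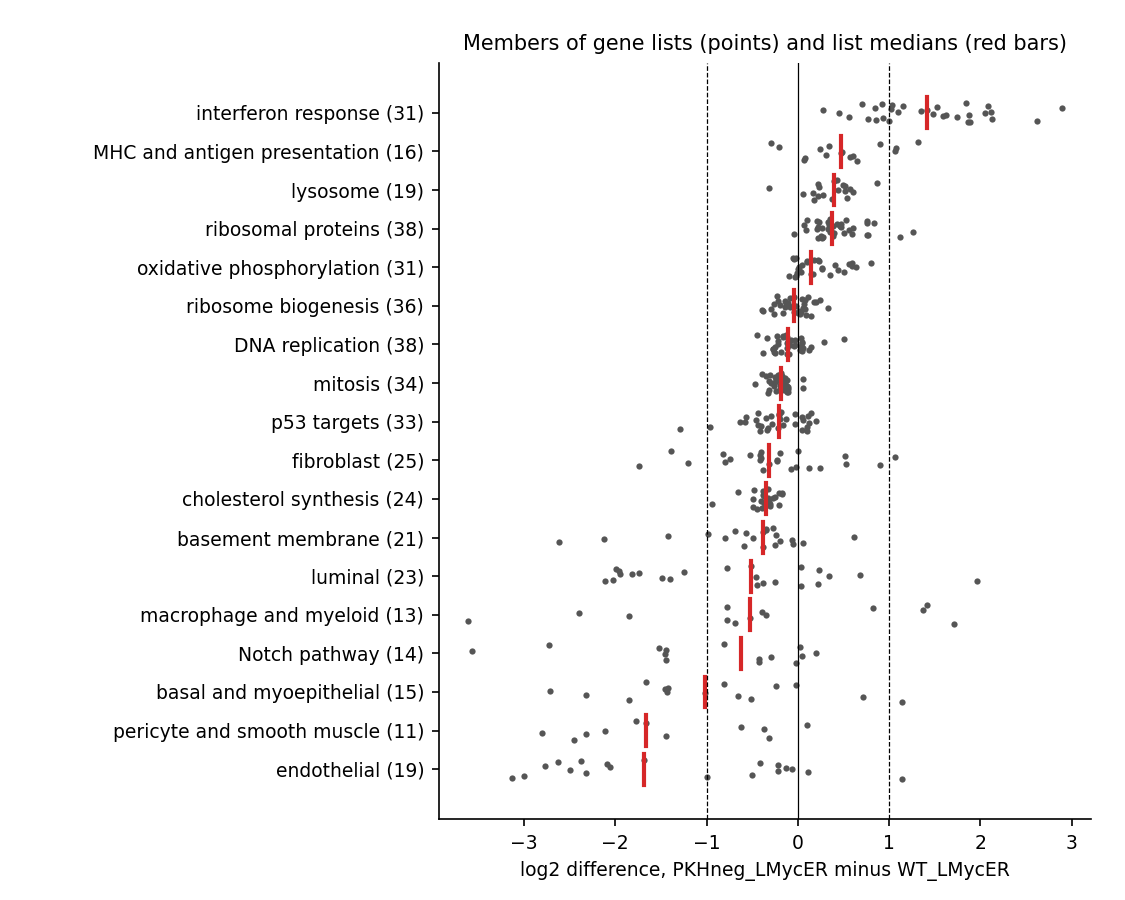
Members of 18 gene lists as points on the log2 difference axis, PKHneg_LMycER minus WT_LMycER, with list medians as red bars and the number of measured genes in parentheses. The interferon list has its median at 1.41 and the endothelial list at -1.68, while mitosis, DNA replication and ribosome biogenesis genes lie within 2-fold.

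Genes lower in PKHneg_LMycER were set beside the difference between the origins without Myc-ER. Of the 347, 189 (54.5%) were also 2-fold or more lower in PKHneg, which is 22.2% of the 853 genes (6.35% of all) that were. Among genes with the higher mean at least 200 in both pairs of groups, 52 of 109 were lower in both (47.7%, beside 2.43% of all genes of that level). Of the 343 higher genes, 56 (16.3%) were also 2-fold or more higher in PKHneg, beside 4.84% of all genes, and 72 (21%) were lower there. At the same level of at least 200, 33 of 136 (24.3%, beside 4.09%) were higher and 7 (5.15%) lower in PKHneg. The groups behind these 2 differences share no library. Over all genes the spread of the difference was smaller with Myc-ER than without, with an SD of 0.48 between PKHneg_LMycER and WT_LMycER and 0.68 between PKHneg and WT_Lctrl, and the differences were weakly related across genes (Pearson r 0.18, Spearman rho 0.034 over 13431 genes, a description with no test).

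The dye-retaining population was also read for the same genes. Its contrast uses the same PKHneg libraries as the comparison with WT_Lctrl above, so these readings are not independent. The authors' deposited table of PKHhigh against PKHneg called 196 of the 343 lower genes it listed higher in PKHhigh (57.1%, beside 13.3% of all genes), and 80 of 310 higher genes lower in PKHhigh (25.8%, beside 15.7%). At means of at least 200 the shares were 38 of 109 (34.9%, beside 9.65%) and 62 of 136 (45.6%, beside 17.8%). The other direction also occurred. Of the higher genes, 52 of 310 were called higher in PKHhigh (16.8%, beside 13.3%), and of the lower genes 36 of 343 were called lower (10.5%, beside 15.7%). At means of at least 200 these shares were 22 of 136 (16.2%, beside 9.65%) and 25 of 109 (22.9%, beside 17.8%). Krt8, for example, stood at 12771 normalised counts in PKHhigh and 168 in PKHneg, and Pecam1 at 13358 in PKHhigh and 208 in PKHneg. Lyz2 stood at 28615 in PKHhigh and 76.4 in PKHneg. All 3 were far higher in PKHhigh than in PKHneg, and all 3 were lower in PKHneg_LMycER than in WT_LMycER. PKHhigh levels were set on the common scale through the PKHneg libraries, whose means in the 2 tables had a nearly constant ratio over genes. PKHneg and PKHneg_LMycER are tied to WT_Lctrl and WT_LMycER only through the median ratio.

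**Figure D4:**
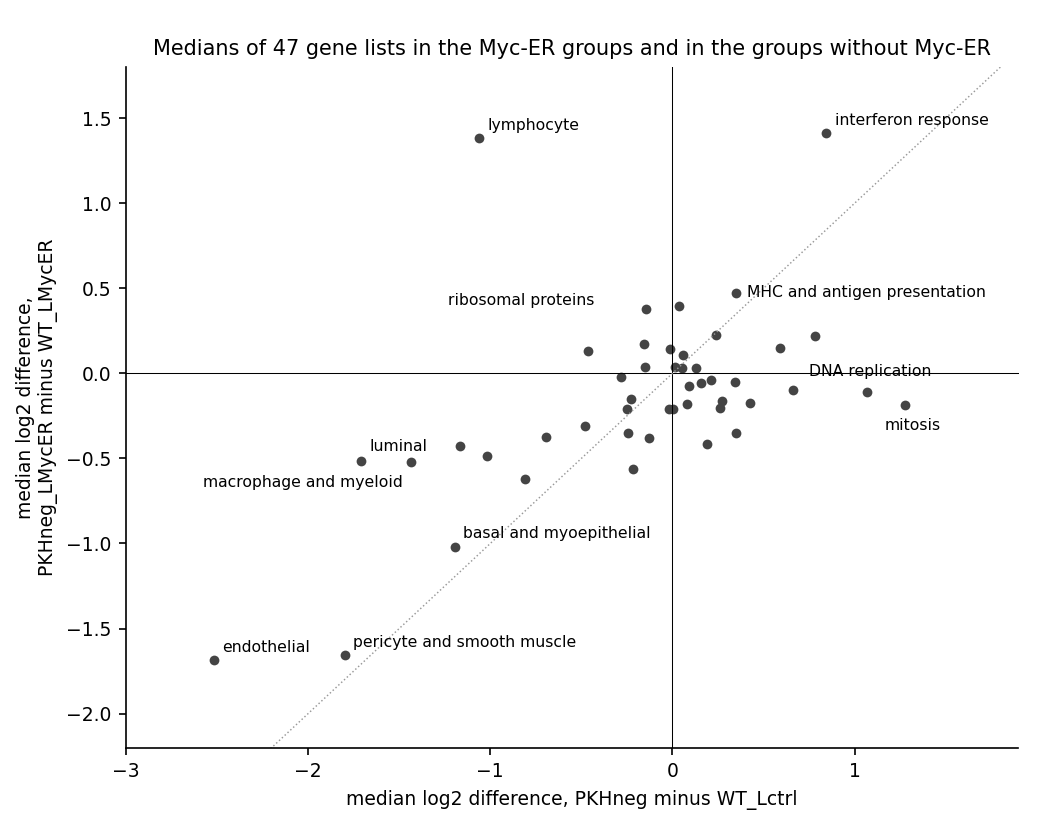
Each point is 1 of 47 gene lists, with the median log2 difference of PKHneg minus WT_Lctrl across and of PKHneg_LMycER minus WT_LMycER up; the dotted line marks equal values. Endothelial, pericyte and basal lists lie low on both axes, the interferon list high on both, and mitosis and DNA replication lie to the right but near 0 on the vertical axis.

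Genes of cell division were close between PKHneg_LMycER and WT_LMycER and far apart between the groups without Myc-ER. No gene of 34 in the mitosis list was past 2-fold; the median was -0.19, and 32 of the 34 lay below 0. Mki67, a marker of cycling cells, averaged 6919 normalised counts in PKHneg_LMycER and 7871 in WT_LMycER, against 8146 in PKHneg and 3397 in WT_Lctrl. Plk1, a mitotic kinase, averaged 2012 in PKHneg_LMycER and 2232 in WT_LMycER, against 2012 in PKHneg and 777 in WT_Lctrl. The same list had a median of 1.28 in PKHneg against WT_Lctrl. By the authors' deposited tables, 32 of the 34 rose and none fell in WT_LMycER against WT_Lctrl, and in PKHneg_LMycER against PKHneg none rose and 1 fell. DNA replication genes followed, with no gene of 38 past 2-fold, a median of -0.11, and 36 that rose in WT_LMycER against 3 in PKHneg_LMycER by the authors' deposited tables.

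Ribosome building genes, the core of the known Myc programme, rose in both. All 36 rose in the authors' deposited table of PKHneg_LMycER against PKHneg, with a median log2 fold change of 0.97, and all 36 in that of WT_LMycER against WT_Lctrl, with a median of 1.24. Between PKHneg_LMycER and WT_LMycER none was past 2-fold and the median was -0.04. Infection and passage also differ between PKHneg_LMycER and PKHneg, here and in the counts above, and cannot be told apart from Myc-ER. Nucleotide and one-carbon enzymes had a median of -0.17, with none of 26 past 2-fold. Trp53 differed by -0.01 ± 0.18 and the p53 targets Cdkn1a, a brake on the cell cycle, and Mdm2, which degrades p53, by -0.30 ± 0.20 and -0.57 ± 0.30. Mdm2 averaged 30158 normalised counts in PKHneg_LMycER and 44890 in WT_LMycER. Cdkn2a, a tumour suppressor gene that is induced in senescence, averaged 3778 in PKHneg_LMycER and 4516 in WT_LMycER (-0.26 ± 0.38), against 699 in PKHneg and 2252 in WT_Lctrl. Erbb2 differed by 0.11 ± 0.23, and of 33 p53 targets 1 was past 2-fold, beside 5.14% of all genes.

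Ribosomal protein genes were a little higher in PKHneg_LMycER: of 38, 37 lay above 0 and 2 were 2-fold or more higher, with a median of 0.38 that becomes 0 by construction when they set the scale. Rps14 averaged 73985 normalised counts in PKHneg_LMycER and 30885 in WT_LMycER (1.26 ± 0.51), and Rps7 averaged 78502 in PKHneg_LMycER and 36127 in WT_LMycER (1.12 ± 0.51). Of 7 host genes of small nucleolar RNAs, grouped after their values were seen, 3 were 2-fold or more higher: Gas5 by 1.21, Snhg1 by 1.18 and Snhg12 by 1.18. Lysosome genes also had a median of 0.39, with 18 of 19 above 0. The cholesterol pathway had a median of -0.35, with all 24 genes below 0 and none past 2-fold. Scaled by ribosomal protein genes, the lysosome median was 0.018. Differences fell with transcript length: genes whose longest transcript had up to 1000 bases had a median of 0.28 and those over 6000 bases -0.13, with a Spearman rho of -0.29 over the 11505 genes with a length and the higher mean at least 50 (a description). No such trend was seen between PKHneg and WT_Lctrl (rho 0.034). After the median of genes of like length was taken away, the median was 0.22 for ribosomal proteins, 1.27 for the interferon list and -1.58 for the endothelial list. The part of transcript length in the ribosomal protein difference was not tested.

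**Figure D5:**
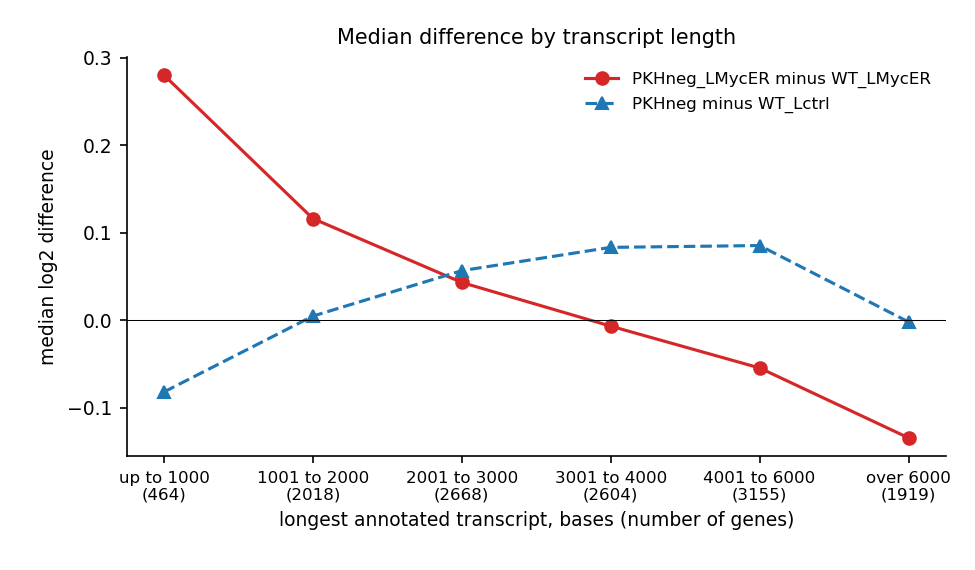
Median log2 difference by the length of the longest annotated transcript in bases, with the number of genes in each class. PKHneg_LMycER minus WT_LMycER goes down from 0.28 for the shortest class to -0.13 for the longest, while PKHneg minus WT_Lctrl stays between -0.08 and 0.09.

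Genes that have been linked to mammary stem cells did not move as a group. The median of the 21 measured was 0.13. None was 2-fold or more higher and 2 were lower, beside 2.55% and 2.58% of all genes. The lower ones were Notch3 and Lgr6, a receptor of the Wnt co-activator R-spondin, with 16.4 normalised counts in PKHneg_LMycER and 60.5 in WT_LMycER (-1.82 ± 0.85). Procr, a surface receptor for protein C, averaged 2325 in PKHneg_LMycER and 1414 in WT_LMycER (0.72). The surface proteins Cd44 and Itga6 differed by -0.08 and -0.24. Dlk1, an imprinted Notch-like protein, averaged 23608 in PKHneg_LMycER and 16515 in WT_LMycER, against 86.1 in PKHneg and 2715 in WT_Lctrl. It was thus within 2-fold between the Myc-ER groups and far apart between the groups without Myc-ER.

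Few members of the signalling and regulatory lists were past 2-fold. Over all genes 2.55% were 2-fold or more higher and 2.58% lower. Counts of 1 or 2 in a list of about 20 therefore say little about that list. None of 25 Hox genes and none of 19 Polycomb and chromatin genes was past it, with medians of 0.04 and 0.03. Of 20 Wnt genes measured, 2 were 2-fold or more higher, neither past 2 implied standard errors, and 1 was lower, with a median of -0.02. Wnt7b, a ligand, averaged 15.4 normalised counts in PKHneg_LMycER and 87.6 in WT_LMycER (-2.44 ± 0.75), and Sfrp2, a secreted Wnt inhibitor, averaged 336 in PKHneg_LMycER and 163 in WT_LMycER. Of 20 TGF-beta and BMP genes, 1 was 2-fold or more higher, 2 were lower and 13 lay below 0, with a median of -0.21. The higher one was Id1, a target of BMP signalling, which averaged 1170 in PKHneg_LMycER and 560 in WT_LMycER (1.06 ± 0.35). The lower ones were Inhba and Inhbb, subunits of activins, which differed by -1.02 ± 0.64 and -1.0 ± 0.36. Of 20 IGF axis and imprinted genes, 1 was 2-fold or more higher and 3 were lower (Cdkn1c, Zim1 and H19), with a median of -0.15. Igfbp3, the higher one, which binds insulin-like growth factors, averaged 5298 in PKHneg_LMycER and 2073 in WT_LMycER (1.35 ± 0.66). Gsta2, a glutathione transferase, averaged 110 in PKHneg_LMycER and 14.0 in WT_LMycER (2.89 ± 0.90), against 0.84 in PKHneg and 10.5 in WT_Lctrl. Oestrogen-response genes, of which 13 were measured including the vector-borne Esr1, had no member past 2-fold and a median of 0.04.

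Single genes stood apart from these groups. Ecel1, an endothelin-converting enzyme-like protein at chr1:87147655-87156521, had the largest difference, with 1861 normalised counts in PKHneg_LMycER and 101 in WT_LMycER (4.19 ± 0.72, 18.5-fold), against 49.1 in PKHneg and 184 in WT_Lctrl. Adra2a, an adrenergic receptor, averaged 2076 in PKHneg_LMycER and 448 in WT_LMycER (2.21 ± 0.51). Car8, a carbonic anhydrase-related protein, averaged 1139 in PKHneg_LMycER and 269 in WT_LMycER, and Cadm3, a cell adhesion molecule, averaged 1770 in PKHneg_LMycER and 344 in WT_LMycER. For Ecel1 and Adra2a, PKHneg was lower than WT_Lctrl, so the direction in the Myc-ER groups was the opposite. Cdkn1c, an imprinted inhibitor of the cell cycle, averaged 345 in PKHneg_LMycER and 1100 in WT_LMycER (-1.67 ± 0.80), against 1108 in PKHneg and 829 in WT_Lctrl. The transporter Slco4a1 averaged 466 in PKHneg_LMycER and 1907 in WT_LMycER (-2.03 ± 0.75), against 2640 in PKHneg and 896 in WT_Lctrl.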

How the data were processed

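Polyadenylated RNA was sequenced from TruSeq RNA kit libraries, per the labels' protocols. Upstream, the authors used CASAVA 1.9, TopHat2 2.0.8, Bowtie2 2.1.0, SAMtools 0.1.18, HTSeq 0.5.3p9 and DESeq2 1.10.1, with the mouse build mm10, according to the submitters' processing notes. Per the file headers, each table gives a signal per gene and group (normalised read counts averaged over biological replicates) for genes with an overall mean above 10, with the authors' log2 fold change and the authors' p-value and adjusted p-value. The total read count of each library was not analysed here, so depth is unknown.

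The tables of WT_LMycER and of PKHneg_LMycER list 13873 and 14382 genes; the 442 and 951 listed in only 1 were not analysed here. The header of the first calls its reference normal wild-type mammospheres, which was matched to WT_Lctrl, the only unsorted wild-type group without Myc-ER. PKHneg was divided by the same factor as PKHneg_LMycER; between its own column and that of WT_Lctrl the median ratio was 1.09. A gene was past the fold at an absolute log2 difference of at least 1, with a pseudocount of 1. The implied standard error of a gene in a table is the size of the deposited log2 fold change over the normal quantile that matches the deposited p-value, and the 2 tables were combined as the root of the sum of squares. The authors' fold changes are shrunken, so it may understate the spread. The median over genes was 0.32.

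The members and the 47 lists were chosen with earlier results of these data known. Genes are named by rule: Myc, Esr1, Trp53, Cdkn1a, Mdm2, Cdkn2a and Erbb2; the 15 largest differences in each direction with the higher mean at least 200 and past 2 combined standard errors; and up to 4 members per list past 2-fold with the higher mean at least 50. Other genes were chosen after their values were seen. Positions come from GENCODE M21 on GRCm38, where 95.3% of symbols matched 1 place. Overlapping genes may share reads, because no source says whether strand was used in counting. Calculations used Python 3.11.15, pandas 2.3.3 and scipy 1.17.1, and the procedure was tested on simulated data.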

Additional observations from a re-analysis of the deposited data

How the results depend on the processing

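The counts of 343 higher and 347 lower genes moved to 149 and 790 when the groups were scaled by ribosomal protein genes, to 155 and 114 among genes with the higher mean at least 200, to 1008 and 903 at a limit of 1.5-fold, and to 35 and 58 at 4-fold. The counts past 2 combined standard errors, 213 and 209, moved to 76 and 560 with ribosomal protein scaling and to 126 and 79 at means of at least 200. At 3 combined standard errors they were 71 and 66, and with a pseudocount of 10 the lower count was 138. Across the settings, 763 of 772 values of named genes and 402 of 420 list medians stayed within the spread. Of the 18 list medians that moved, 17 did so with ribosomal protein scaling. Of these, oxidative phosphorylation, for example, changed sign, from 0.14 to -0.23. That scaling shifted log2 differences by about -0.38, so other lists with small positive medians changed sign too. They include heat shock genes (0.23 before), Hox genes (0.04) and Polycomb and chromatin genes (0.03). The filter at 200 and the length correction were chosen after seeing the data. Leaving out single libraries was not run. No paired analysis was possible because only group means were used. With no values per library, the depth behind each mean is unknown, and differences of genes with low means are the least certain.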
